A study of Bos taurus with 15 samples.

Results

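The genes described here make and break down the prostaglandins and leukotrienes, lipid mediators derived from arachidonic acid, in the subcutaneous adipose tissue of the cow. They are 10 genes out of 13896 in the tables of the series, chosen by name: *PLA2G4A*, *PTGS1*, *PTGS2*, *PTGES*, *PTGES2*, *PTGDS*, *PTGIS*, *TBXAS1*, *HPGD* and *ALOX5*. All 10 were present in all 6 tables and were tested in every comparison.

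Fat was taken from the dewlap of primiparous Prim Holstein cows, and its total RNA was sequenced after removal of ribosomal RNA, in 15 libraries with 3 in each of 5 groups. One group was sampled at -4 weeks peripartum (wkpp), before the diets began, and the labels do not say which of the 2 diets its cows then received. Comparisons with it therefore set other times and possibly other cows side by side, which cannot be told apart. The cows of the other groups were fed from that time a low energy diet (LE in the labels; severe negative energy balance, SNEB) or a high energy diet (HE; moderate negative energy balance, MNEB), and were sampled at 1 and at 16 wkpp. Per the study's methods each animal was biopsied at every time, so the libraries of a NEB group at 1 and 16 wkpp are likely of the same cows. The cows sequenced were those with the most extreme energy balance at 1 wkpp, so the SNEB and MNEB groups differ in diet and in this choice together. The sample titles also carry a mark of 2 kinds that the labels do not explain, and it differs between the groups in every comparison except -4 against MNEB 1 wkpp, so that mark and group cannot be told apart there.

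Arachidonic acid is cut from membrane phospholipids by phospholipases A2. The cyclooxygenases turn it into prostaglandin H2, from which separate synthases make prostaglandin E2, prostaglandin D2, prostacyclin or thromboxane, whereas 5-lipoxygenase opens the way to the leukotrienes. In adipose tissue prostaglandins are known to restrain lipolysis and to act on the formation of fat cells, and leukotrienes are mostly products of immune cells.

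For each gene, reads were counted on its exons and, separately, over the entire gene with its introns. The reads of each library were solved from the deposited means of the 6 comparisons, and all values below are read counts divided by the size factor of the library ("normalized counts"). Libraries are named a, b and c within a group from the largest to the smallest exonic size factor, and these letters do not link animals between groups. A gene was called when the adjusted p of limma was below 0.01 in the exon and the whole gene analysis with the same sign. Fold changes are given as the first group over the second, on the log2 scale with their standard error.

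The MNEB libraries stood apart from the rest. They held 2014997 to 7437690 exonic gene reads, against 7967342 to 14467588 in the other 9 libraries. Per the study's supplement, the total reads sequenced spanned a similar range in MNEB and other libraries. A smaller share of the reads aligned uniquely in each MNEB library than in any other, and more reads aligned to several places. Synthetic spike-in RNAs took 38.4 to 339 reads per 1000 exonic gene reads in MNEB cows and 2.47 to 20.4 in the others. Adipocyte genes (6 measured, 7 listed) summed to normalized exonic counts of 9324 to 55858 in MNEB libraries and 41389 to 87029 in the others. Of these, *CIDEC* was lower in each MNEB library (734 to 1841 against 2768 to 7862), and *PLIN1*, *LEP*, *LIPE*, *FABP4* and *PPARG* overlapped. *PLIN1*, a coat protein of the fat droplet, was 2992 to 11382 in MNEB libraries and 10930.5 to 25470 in the others. *LIPE* went the other way at 1 wkpp, with 4922 to 8332 in MNEB cows against 3017 to 4240 at -4 wkpp. The hormone gene *LEP* was lowest in SNEB cows at 16 wkpp, at 8.57 to 41.6. The summed fibroblast markers (*PDGFRA*, *DCN* and *LUM*, 3 of 5 listed) were 6475 to 22020.0 in MNEB libraries and 33889.9 to 76093 in all others. Mast cell genes (5 of 8 listed) summed to 686 to 1298 against 1612 to 4868, although *GATA2* of this list reached 963 in MNEB libraries and 473 in the others. Of the 5 smooth muscle genes, *SMTN* was higher in each MNEB library (2776 to 5770.4 against 408 to 1083), and the other 4 overlapped. In bulk tissue, fewer cells of a type and less RNA per cell cannot be told apart, and the part of depth, RNA input or cell makeup in the differences below was not tested.

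**Figure D1:**
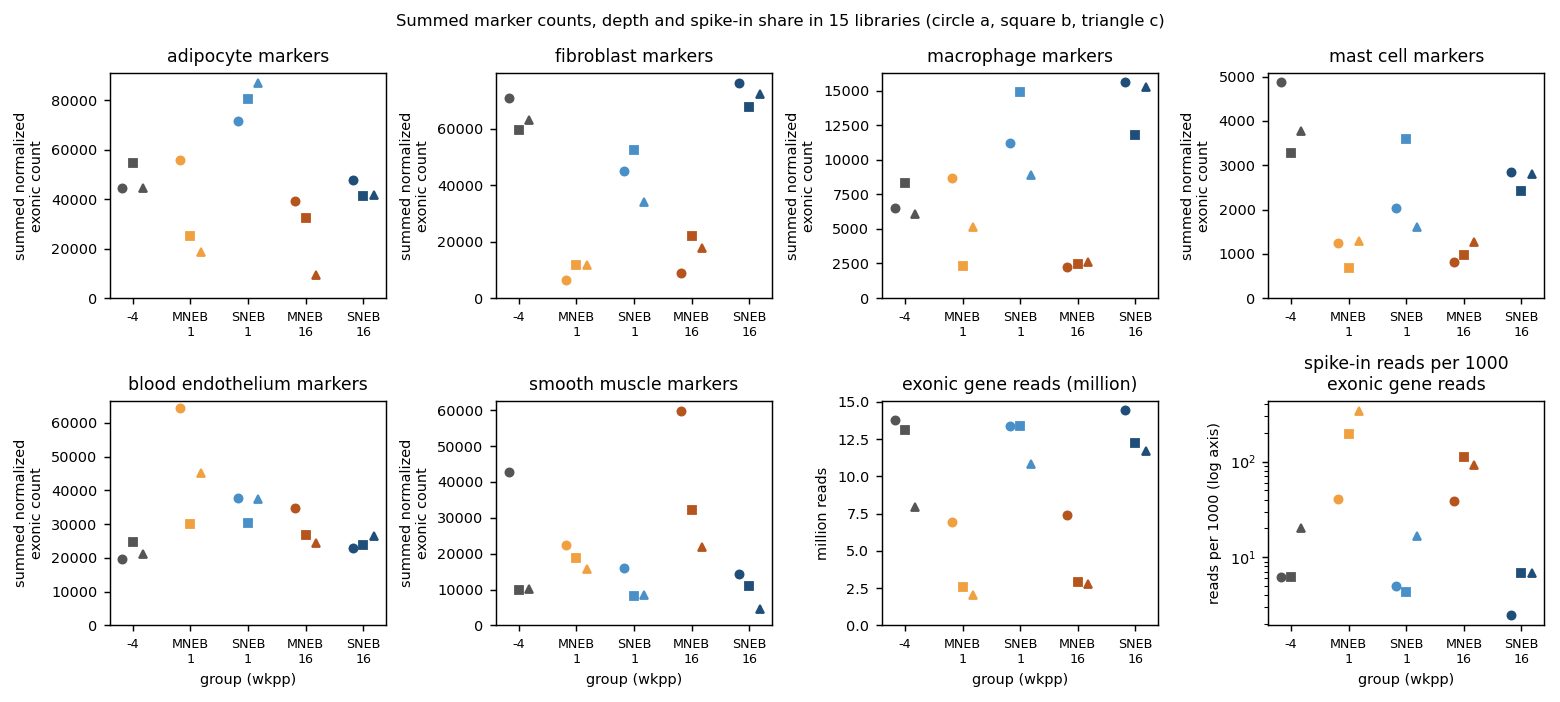
Summed normalized exonic counts of marker genes of 6 cell types, exonic gene reads and spike-in reads per 1000 exonic gene reads (log axis), 1 point per library, in the 5 groups. In the MNEB groups the fibroblast sums reach 22020.0 at most and the spike-in reads are 38.4 or more per 1000.

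No gene of the 10 was called in any of the 6 comparisons. The background of calls was 1.83% of 10407 genes for -4 against MNEB 1 wkpp, 0.0378% of 10590 for -4 against SNEB 1 wkpp and 3.63% of 10152 for SNEB against MNEB at 16 wkpp. It was 0% in the other 3 comparisons, where at an unadjusted p below 0.05 in both analyses 8.02% (MNEB 1 against 16 wkpp), 4.57% (SNEB 1 against 16 wkpp) and 18.3% (SNEB against MNEB at 1 wkpp) of genes passed in limma. At an adjusted p below 0.05 in both analyses, 2 members passed for -4 against MNEB 1 wkpp (*ALOX5* and *PTGIS*, background 10.2%) and 5 for SNEB against MNEB at 16 wkpp (*PTGS1*, *PTGS2*, *PTGDS*, *HPGD* and *ALOX5*, background 13.2%). None of the 10 passed that wider threshold in the other 4 comparisons, where the background was 0.633% for -4 against SNEB 1 wkpp, 0.511% for SNEB against MNEB at 1 wkpp and 0% for the changes from 1 to 16 wkpp.

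**Figure D2:**
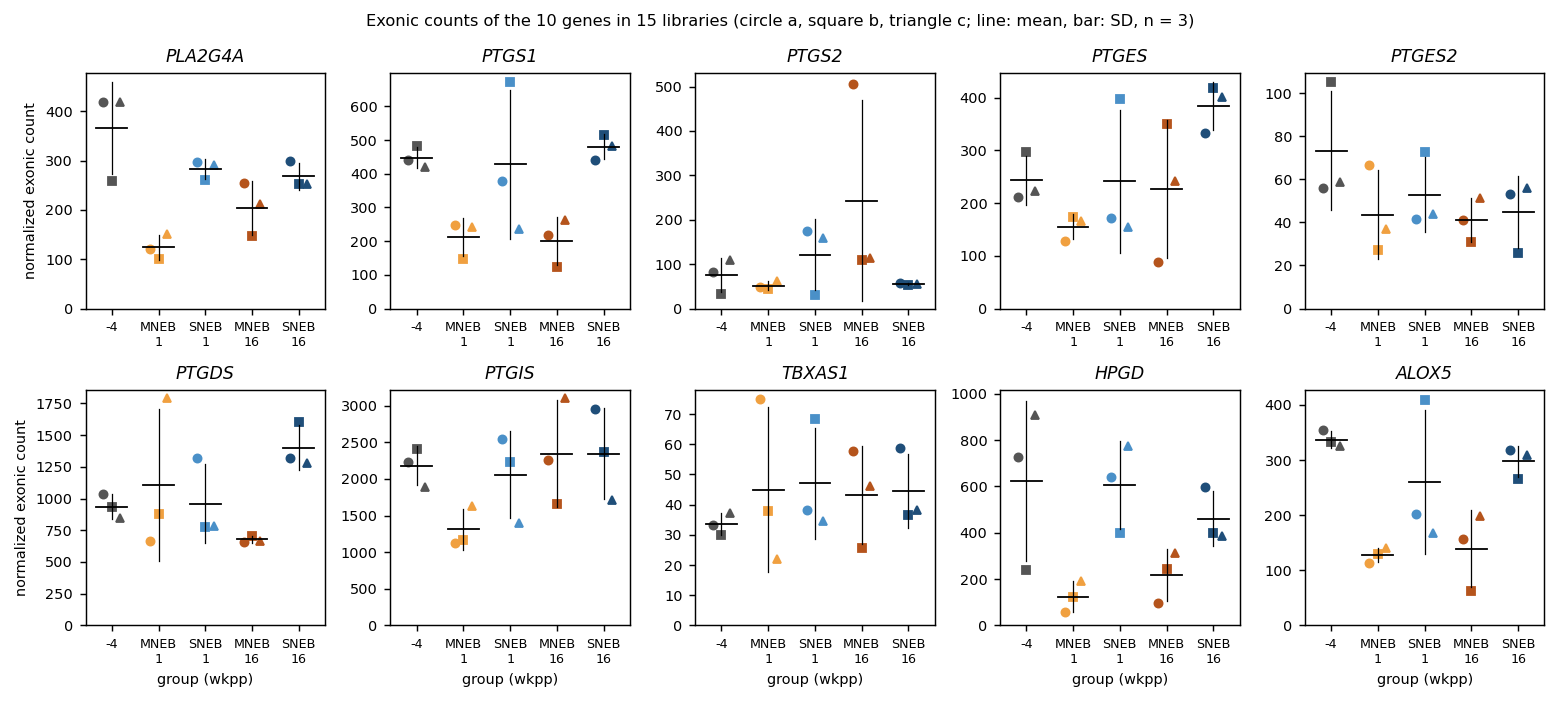
Normalized exonic counts of the 10 genes by group, 1 point per library, with the mean as a line and the SD as a bar (n = 3). *ALOX5* and *PTGS1* lie lower in both MNEB groups than at -4 wkpp and in SNEB cows at 16 wkpp, and 1 MNEB library at 16 wkpp holds the highest *PTGS2* count, 506.

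*PLA2G4A* encodes the cytosolic phospholipase A2 that releases arachidonic acid. Its normalized exonic count was 419.6, 258 and 419 at -4 wkpp in libraries a, b and c. It was 121, 99.98 and 151 in MNEB cows at 1 wkpp and 298, 259.6 and 292 in SNEB cows at the same week. All MNEB libraries were below all others at that time. At 16 wkpp MNEB cows had 255, 147 and 211 and SNEB cows 299.8, 253 and 252, and the groups overlapped. For -4 over MNEB 1 wkpp, the exonic log2 fold change was 1.56 ± 0.31 (adjusted p = 0.00465 in limma), but over the entire gene it was 0.73 ± 0.30 (adjusted p = 0.176), so *PLA2G4A* was not called. Over the entire gene the -4 wkpp counts of 1163 to 1950.3 overlapped those of MNEB cows at 1 wkpp (735 to 1309.7).

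The exonic share of the *PLA2G4A* reads shows where these analyses part. Of the reads on the gene, 9.54% to 16.9% were exonic in MNEB libraries at 1 wkpp, below the 17.5% to 24.2% at -4 wkpp and the 18.1% to 22.5% in SNEB cows at 1 wkpp. Over all genes together the share was 47.3% to 54.1% in that group and 40.5% to 54.3% at -4 wkpp. SNEB over MNEB at 1 wkpp gave an exonic log2 fold change of 1.23 ± 0.26 (adjusted p = 0.0166) and 0.48 ± 0.25 over the entire gene (adjusted p = 0.347).

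*PTGS1* encodes the constitutive cyclooxygenase. At -4 wkpp its normalized exonic counts were 439.7, 481 and 420.3. MNEB cows at 1 wkpp had 248, 149 and 243, without overlap. In SNEB cows at 1 wkpp, library b had 671 whereas a and c had 378 and 236, so the group overlapped both of these. At 16 wkpp the counts were 217, 123 and 263 in MNEB and 441, 515 and 483 in SNEB cows, without overlap. SNEB over MNEB at 16 wkpp gave 1.28 ± 0.24 in exons (adjusted p = 0.00635) and 0.93 ± 0.23 over the entire gene (adjusted p = 0.0354), a fold of 2.43 in exons. It gave 1.07 ± 0.26 in exons for -4 over MNEB 1 wkpp (adjusted p = 0.0108), and 0.54 ± 0.24 over the entire gene (adjusted p = 0.215).

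*PTGS2* encodes the inducible cyclooxygenase, which is known to be switched on by inflammation and tissue injury. Its fitted fold change for SNEB over MNEB at 16 wkpp was negative in exons and over the entire gene. The normalized exonic counts at 16 wkpp were 506, 111 and 114 in MNEB and 57.7, 52.6 and 56.1 in SNEB cows. The groups did not overlap, and library a of the MNEB cows was more than 4 times as high as b and c. The log2 fold change was -2.09 ± 0.55 in exons (adjusted p = 0.0258) and -2.22 ± 0.57 over the entire gene (adjusted p = 0.0373). Without MNEB library a the exonic value was -1.02. At 1 wkpp the MNEB counts of 49.0, 43.2 and 62.5 were all below the MNEB counts at 16 wkpp, but MNEB 1 over 16 wkpp did not pass the test in exons (-2.08 ± 0.71, adjusted p = 0.288), and it was -1.16 without MNEB library a of 16 wkpp. In SNEB cows at 1 wkpp the counts scattered from 29.7 in library b to 175 in library a, and at -4 wkpp from 33.6 to 110.2.

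*PTGES* encodes the microsomal prostaglandin E synthase that works with the inducible cyclooxygenase. Its exonic counts were 211 to 296 at -4 wkpp and 128 to 173 in MNEB cows at 1 wkpp, without overlap (0.71 ± 0.27, adjusted p = 0.0731). At 16 wkpp SNEB cows had 332, 418 and 401. The MNEB libraries a, b and c had 89.0, 349.6 and 241, so that b fell within the SNEB range. The exonic fold change there was 1.23 ± 0.40 (adjusted p = 0.0529), and the whole gene value was 1.65 ± 0.42 (adjusted p = 0.0371). Without MNEB library a the exonic value was 0.39, and without MNEB library b it was 1.65 (adjusted p = 0.0184 in limma). *PTGES2*, another prostaglandin E synthase, had exonic counts of 25.7 to 105 over all 15 libraries, from 10 to 172 reads. Every comparison of it had an adjusted p of 0.447 or more in exons, and the 95% intervals of its exonic fold change reached from -1.02 to 1.18 for SNEB over MNEB at 1 wkpp and from -0.93 to 1.06 at 16 wkpp.

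*PTGDS* encodes the lipocalin-type prostaglandin D synthase. At 16 wkpp its normalized exonic counts were 657, 707 and 669 in MNEB and 1319, 1601 and 1278 in SNEB cows. Each group was tight and they did not overlap. The log2 fold change of 1.05 ± 0.16 in exons (adjusted p = 0.00277) was the most precise of the set in that comparison, with a fold of 2.07, and the whole gene value was 0.76 ± 0.19 (adjusted p = 0.0329). At 1 wkpp there was no such order. MNEB cows had 662, 876 and 1790.1 and SNEB cows 1319, 775 and 783, and SNEB over MNEB was -0.07 ± 0.36 (adjusted p = 0.91), or 0.32 without MNEB library c.

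*PTGIS* encodes prostacyclin synthase, an enzyme of vessel walls and stroma. In MNEB cows at 1 wkpp its normalized exonic counts were 1131, 1167 and 1636, below all 3 libraries at -4 wkpp (2238, 2409.7 and 1892). The exonic log2 fold change of -4 over MNEB 1 wkpp was 0.76 ± 0.22 (adjusted p = 0.0241), and over the entire gene it was larger, 1.35 ± 0.26 (adjusted p = 0.0242). Between 38.6% and 68.1% of the *PTGIS* reads were exonic in that group, against 31.2% to 39.3% at -4 wkpp. At 16 wkpp MNEB cows had 2258, 1655 and 3109 and SNEB cows 2959, 2370.3 and 1709, and SNEB over MNEB was 0.01 with a 95% interval from -0.62 to 0.65. MNEB 1 and 16 wkpp did not overlap in either analysis, but the fold change of -0.82 ± 0.27 in exons did not pass the test (adjusted p = 0.276). Nor did that of -1.36 ± 0.25 over the entire gene (adjusted p = 0.267 in limma). At 1 wkpp SNEB cows had 1395 to 2550.7, and SNEB over MNEB was 0.65 ± 0.27 in exons (adjusted p = 0.13), where the groups overlapped. Over the entire gene they did not overlap, with 1.07 ± 0.28 (adjusted p = 0.109).

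*TBXAS1* encodes thromboxane synthase, found mainly in platelets and macrophages. It was thinly covered in exons, with 22.1 to 75.1 normalized counts and as few as 6 reads in a library, and its exonic values did not separate the groups of any comparison. Most of its reads were intronic, since exonic reads were between 2.151% and 13.7% of those on the gene. Over the entire gene, the MNEB libraries at 1 wkpp had 753, 892 and 1009 normalized counts, above all 12 other libraries (217 to 559.9). The whole gene log2 fold change was -1.14 ± 0.31 for -4 over MNEB 1 wkpp (adjusted p = 0.0677) and -0.98 ± 0.23 for SNEB over MNEB at 1 wkpp (adjusted p = 0.0911), against exonic values of -0.64 ± 0.47 and -0.17 ± 0.53, which were 0.13 and 0.58 without MNEB library a. The platelet and erythrocyte genes (4 of 5 listed) summed to 454 to 1077 normalized exonic counts in the same MNEB libraries and 153 to 495 in all others. Of these, the platelet gene *ITGA2B* had 413 to 742 against 122 to 347, and the globin *HBB* overlapped (16.7 to 283 against 9.73 to 273). Macrophage genes (8 of 9 listed) summed to 2337 to 8647 in these MNEB libraries, 6044 to 8346 at -4 wkpp and 8923 to 14908 in SNEB cows at 1 wkpp. The part of these cells in the *TBXAS1* values was not tested.

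**Figure D3:**
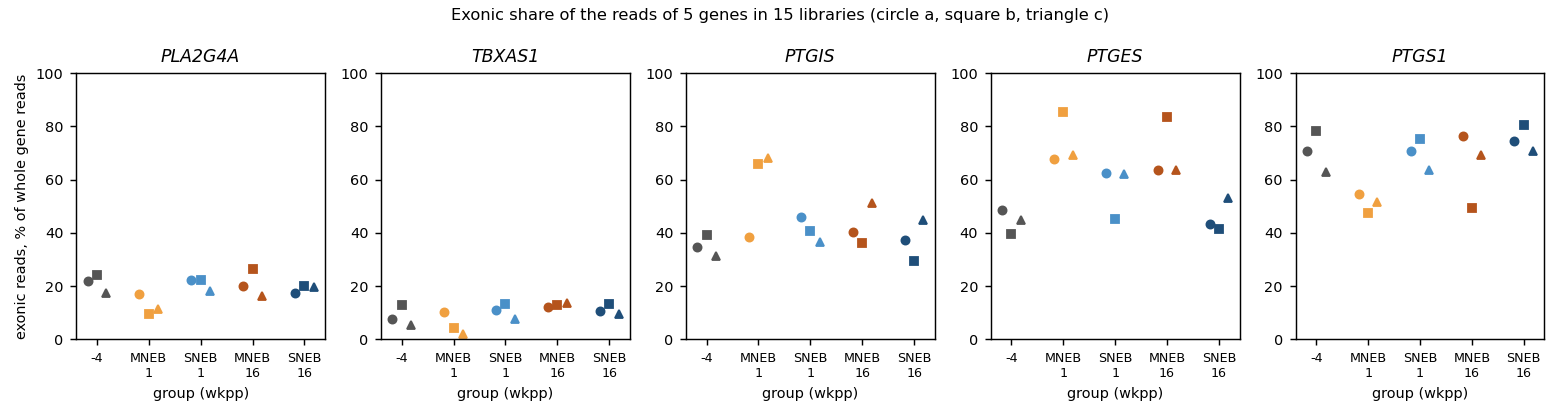
Exonic reads as a percent of the reads on the entire gene for 5 genes, 1 point per library, in the 5 groups. In MNEB cows at 1 wkpp the share of *PLA2G4A* is 16.9% or less, and that of *PTGS1* is 47.4% to 54.5%.

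*HPGD* encodes the dehydrogenase that inactivates prostaglandins, and it had the largest fitted exonic fold changes of the set for -4 and for SNEB over MNEB 1 wkpp. Its normalized exonic counts were 57.3, 124 and 191 in MNEB and 643, 399 and 776 in SNEB cows. No library overlapped, and SNEB over MNEB was 2.70 ± 0.45 in exons (adjusted p = 0.01001) and 2.63 ± 0.45 over the entire gene (adjusted p = 0.055). The exonic fold was 6.49. *HPGD* thus lay just outside the threshold in exons, and without MNEB library a the exonic value was 1.98. At 16 wkpp MNEB cows had 95.8, 242 and 314 and SNEB cows 599, 401 and 385, again without overlap, and the fold change was smaller, 1.47 ± 0.39 (adjusted p = 0.0266), with 1.81 ± 0.35 over the entire gene (adjusted p = 0.0149). Without MNEB library a the exonic value at 16 wkpp was 0.72. At -4 wkpp, library b had 239 whereas a and c had 727 and 908. The fold change of -4 over MNEB 1 wkpp was 2.57 ± 0.62 in exons (adjusted p = 0.011) and 2.18 ± 0.63 over the entire gene (adjusted p = 0.0789). In exons it was 1.86 without MNEB library a and 3.17 without -4 wkpp library b.

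*ALOX5* encodes 5-lipoxygenase, the first enzyme of leukotriene synthesis, expressed in granulocytes, mast cells and macrophages. At -4 wkpp its normalized exonic counts were 354, 333 and 325. MNEB cows at 1 wkpp had 114, 129.7 and 139.7, and both groups were tight. The log2 fold change was 1.45 ± 0.24 in exons (adjusted p = 0.00192) and 1.57 ± 0.33 over the entire gene (adjusted p = 0.0304), an exonic fold of 2.73. In SNEB cows at 1 wkpp, library b had 409.6 and libraries a and c 203 and 167. These lay above the MNEB values in exons, but SNEB over MNEB did not pass the test (0.97 ± 0.42, adjusted p = 0.147), and the value was 0.58 without SNEB library b. At 16 wkpp the counts were 157, 61.7 and 198 in MNEB and 319, 266 and 308 in SNEB cows, with a log2 fold change of 1.16 ± 0.32 in exons (adjusted p = 0.0289) and 1.34 ± 0.34 over the entire gene (adjusted p = 0.0382).

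Marker genes of cells known to express *ALOX5* were measured beside it. Of the 8 macrophage genes measured (9 listed), 7 were higher in SNEB than in MNEB cows at 16 wkpp at an adjusted p below 0.05 in both analyses, and their summed normalized counts were 2219.8 to 2638 in MNEB and 11794 to 15582 in SNEB libraries. None of the 8 passed for -4 against MNEB 1 wkpp, where the sums were 6044 to 8346 and 2337 to 8647. Of the 5 mast cell genes measured (8 listed), 3 were higher at -4 wkpp than in MNEB cows at 1 wkpp and 2 were higher in SNEB than in MNEB cows at 16 wkpp. Their sums were 3279 to 4868 at -4 wkpp, 686 to 1298 in MNEB cows at both weeks and 2419 to 2852 in SNEB cows at 16 wkpp. The neutrophil genes (5 of 6 measured) summed to 241 to 298 at -4 wkpp, 43.2 to 254 in MNEB cows and 158 to 567 in SNEB cows at 16 wkpp. Of these, 3 were tested in each of the 2 comparisons, and none passed. The part of these cells in the *ALOX5* values was not tested.

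**Figure D4:**
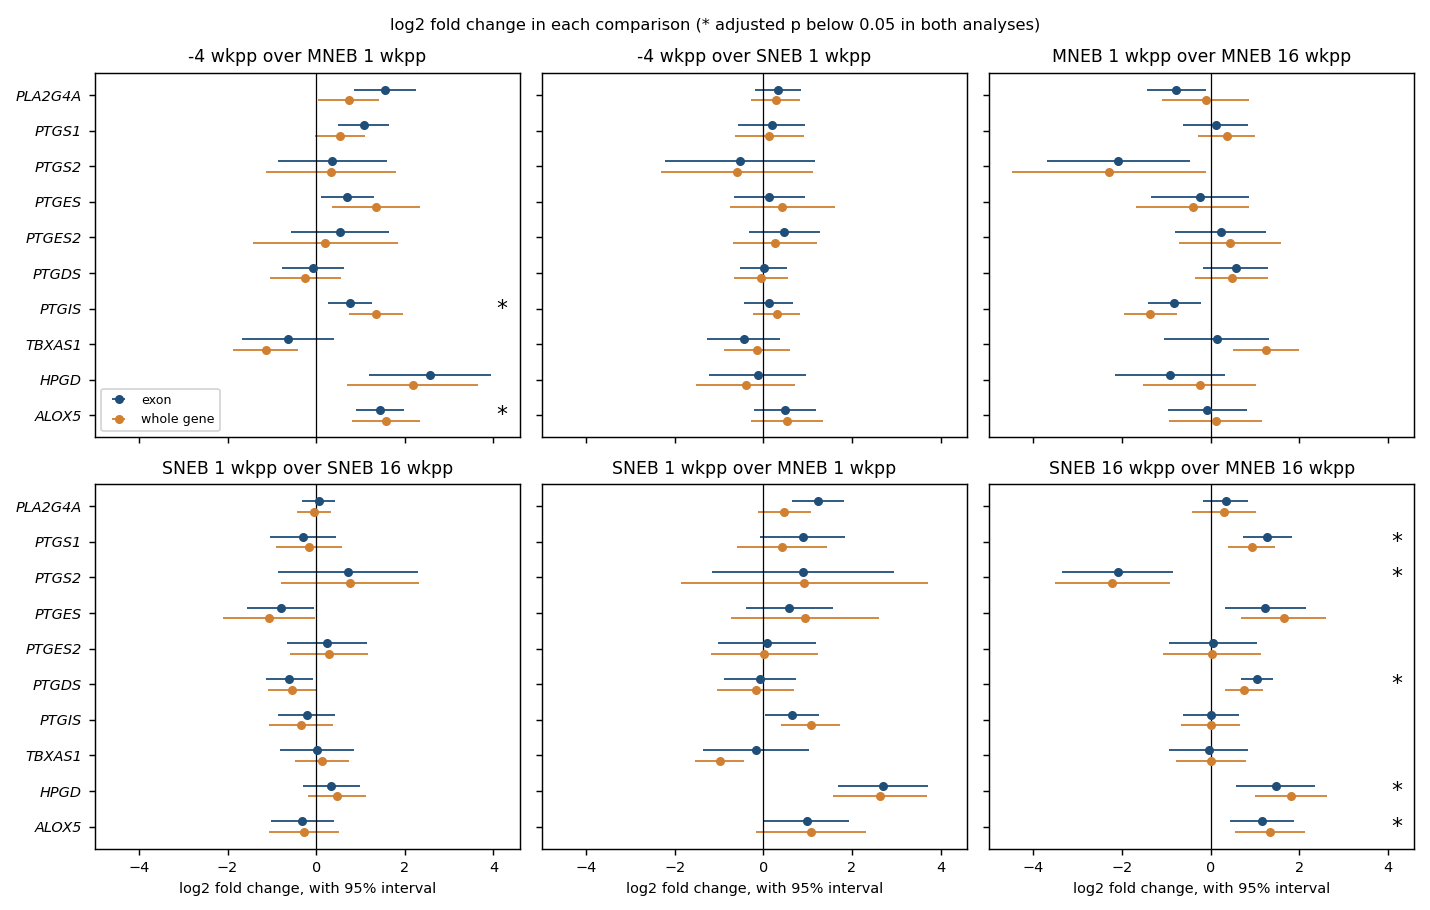
Log2 fold change with its 95% interval for the 10 genes in the 6 comparisons, for exons and entire genes (x axis, first group over second). Asterisks mark the 2 genes for -4 over MNEB 1 wkpp and the 5 for SNEB over MNEB at 16 wkpp with an adjusted p below 0.05 in both analyses.

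How many of the 10 genes separated the groups followed the share over all genes, given in parentheses for each comparison, so that nothing particular to the set is read from these counts. The exonic values of 6 genes did not overlap between -4 and MNEB 1 wkpp (background 46.9%), those of 5 genes between SNEB and MNEB at 16 wkpp (44.2%) and those of 3 genes between SNEB and MNEB at 1 wkpp (39.7%). *PTGS2* and *PTGIS* separated MNEB cows at 1 and 16 wkpp (20.1%). No gene of the set separated -4 from SNEB 1 wkpp (19.8%) or SNEB cows at 1 and 16 wkpp (12.1%). The median exonic log2 fold change of the 10 genes was 0.73 for -4 over MNEB 1 wkpp, 0.77 for SNEB over MNEB at 1 wkpp and 0.69 at 16 wkpp, against 0.04, 0.07 and 0.03 over all genes tested. It was 0.13 for -4 over SNEB 1 wkpp, against -0.03, and -0.16 and -0.10 for 1 over 16 wkpp in MNEB and SNEB cows, against -0.01 for both. The comparisons of -4 with MNEB and with SNEB share the -4 wkpp libraries, and those within a NEB group share libraries with those between NEB groups, so these values are not independent.

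Whether the change from 1 to 16 wkpp differed between SNEB and MNEB cows was tested on 12 libraries in 1 model. It treated the libraries as independent, without a term for the cow, as did the comparisons of 1 with 16 wkpp. Their standard errors, intervals and p therefore take no account of cows likely being sampled at both weeks. No gene of the set, and none of 10241 tested (0%), passed in limma at an adjusted p below 0.01 or 0.05, although 2.81% had an unadjusted p below 0.05 in both analyses. Here the change is 16 over 1 wkpp, and the difference is SNEB minus MNEB, so that a negative value is a lower change in SNEB cows. The largest difference of the set in exons was that of *PTGS2*, -2.94 ± 1.18 on the log2 scale (adjusted p = 0.99), with a 95% interval from -5.49 to -0.40. It was -1.90 without library a of the MNEB cows at 16 wkpp and -3.78 without library b of the SNEB cows at 1 wkpp. *PTGDS* had 1.13 ± 0.44 (adjusted p = 0.983), or 0.74 without library c of the MNEB cows at 1 wkpp, and *PLA2G4A* -0.88 ± 0.32 (adjusted p = 0.983). Within SNEB cows alone, *PTGES* and *PTGDS* had the lowest exonic adjusted p for 1 over 16 wkpp, with -0.80 ± 0.33 and -0.61 ± 0.23 (adjusted p = 0.682 for both), and their groups overlapped. The *PTGES* value was -1.24 without library b of 1 wkpp (adjusted p = 0.0498 in limma), and that of *PTGDS* was -0.39 with library quality weights.

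Library b of the SNEB cows at 1 wkpp stood apart from a and c. Across 8015 genes its log2 counts correlated with a at r = 0.94 and with c at r = 0.90, and a and c at r = 0.96 (genes are not independent replicates). It was closer to library c of the SNEB cows at 16 wkpp (r = 0.97) and to library b at -4 wkpp (r = 0.96) than to either library of its own group. The same held for library c of the SNEB cows at 16 wkpp and library b at -4 wkpp, which were both closest to it, and for library a of the MNEB cows at 1 wkpp, which was closest to library a of the MNEB cows at 16 wkpp (r = 0.91, against 0.90 and 0.89 within its group). Library b of the SNEB cows at 1 wkpp held the highest counts of its group for *PTGS1*, *PTGES*, *PTGES2*, *TBXAS1* and *ALOX5* and the lowest for *PTGS2*, *HPGD* and *PLA2G4A*, in exons and over the entire gene. Its macrophage markers summed to 14908, against 11195 and 8923, and its mast cell markers to 3598, against 2029 and 1612.

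Over the 15 libraries, *PTGS1* and *ALOX5* had the most alike pattern of the set, with r = 0.93 of their log2 exonic counts. *HPGD* and *PLA2G4A* followed with r = 0.80, and *PTGS2* and *PTGES* were the most opposed pair with r = -0.60. These libraries share their group structure and depth, so the correlations are descriptions. Among genes with a mean normalized exonic count of at least 100, the pattern most like that of *PTGS1* was shown by *GLB1L* (r = 0.95), *RAC2* and *CD74* (both r = 0.94), and the one most like *ALOX5* by *PTGS1*, *CYP2U1* (r = 0.93) and *APOA1BP* (r = 0.92). For *HPGD* these were *PDGFD* (r = 0.90), *ZBED8* (r = 0.88) and *EFR3A* (r = 0.87), and for *PTGIS*, *SH3BGRL3*, *TPI1* (both r = 0.92) and *SNU13* (r = 0.90). *PTGS2* and *PTGDS* had no gene above r = 0.83 and r = 0.76, respectively. These likenesses were looked up after the values of the 6 members past the wider threshold had been seen.

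Of 59 other genes of the pathway, between 33 and 40 were tested in a comparison, and 3 calls were made, 1 of 37 genes for -4 against MNEB 1 wkpp (background 1.83%) and 2 of 36 for SNEB against MNEB at 16 wkpp (background 3.63%). *PLA2G7*, a secreted phospholipase that inactivates platelet-activating factor, had normalized exonic counts of 1289, 1131 and 999 at -4 wkpp and 166, 299.9 and 261 in MNEB cows at 1 wkpp. It was higher at -4 wkpp by 2.36 ± 0.27 in exons (adjusted p = 0.000326) and 2.67 ± 0.28 over the entire gene (adjusted p = 0.00634). At 16 wkpp, *EPHX1*, a microsomal epoxide hydrolase, had 703, 787 and 631 in MNEB and 2256, 2217 and 2376 in SNEB cows (1.70 ± 0.16 in exons, adjusted p = 0.000643, and 1.59 ± 0.16 over the entire gene, adjusted p = 0.00262). *PLA2G4B*, another cytosolic phospholipase A2, was lower in SNEB cows, with 167, 172 and 134 against 409.7, 406 and 515 (-1.47 ± 0.18 in exons, adjusted p = 0.00127, and -1.38 ± 0.19 over the entire gene, adjusted p = 0.00519).

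At the wider threshold of 0.05, 4 genes of this list were higher and 1 was lower at -4 wkpp than in MNEB cows at 1 wkpp (of 37, background 10.2%), and 4 were higher and 6 lower in SNEB than in MNEB cows at 16 wkpp (of 36, background 13.2%). Named after their values were seen, the 4 at 16 wkpp that were higher were *PLA2G7*, *EPHX1*, *LTA4H*, the hydrolase that makes leukotriene B4 (1.13 ± 0.19), and *PTGER4*, a prostaglandin E2 receptor (1.05 ± 0.22). Those lower were *PLA2G4B*, *PTGES3* (-0.76 ± 0.19), the thromboxane receptor *TBXA2R* (-1.15 ± 0.27), *GGT1* (-2.42 ± 0.47) and *GGT5* (-1.91 ± 0.37), which trim cysteinyl leukotrienes, and the leukotriene receptor *CYSLTR2* (-1.26 ± 0.30). Counts of *GGT1* were low, with 4.68 to 8.39 normalized exonic counts in SNEB and 28.3 to 46.0 in MNEB libraries at 16 wkpp. The median exonic log2 fold change of the list was 0.61 for -4 over MNEB 1 wkpp and 0.20 for SNEB over MNEB at 16 wkpp, against 0.04 and 0.03 over all genes. It was 0.63 for SNEB over MNEB at 1 wkpp (0.07 over all genes), 0.25 for -4 over SNEB 1 wkpp (-0.03), and for 1 over 16 wkpp -0.33 in MNEB and 0.07 in SNEB cows (-0.01 for both). No gene of the list passed either threshold in the other 4 comparisons.

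**Figure D5:**
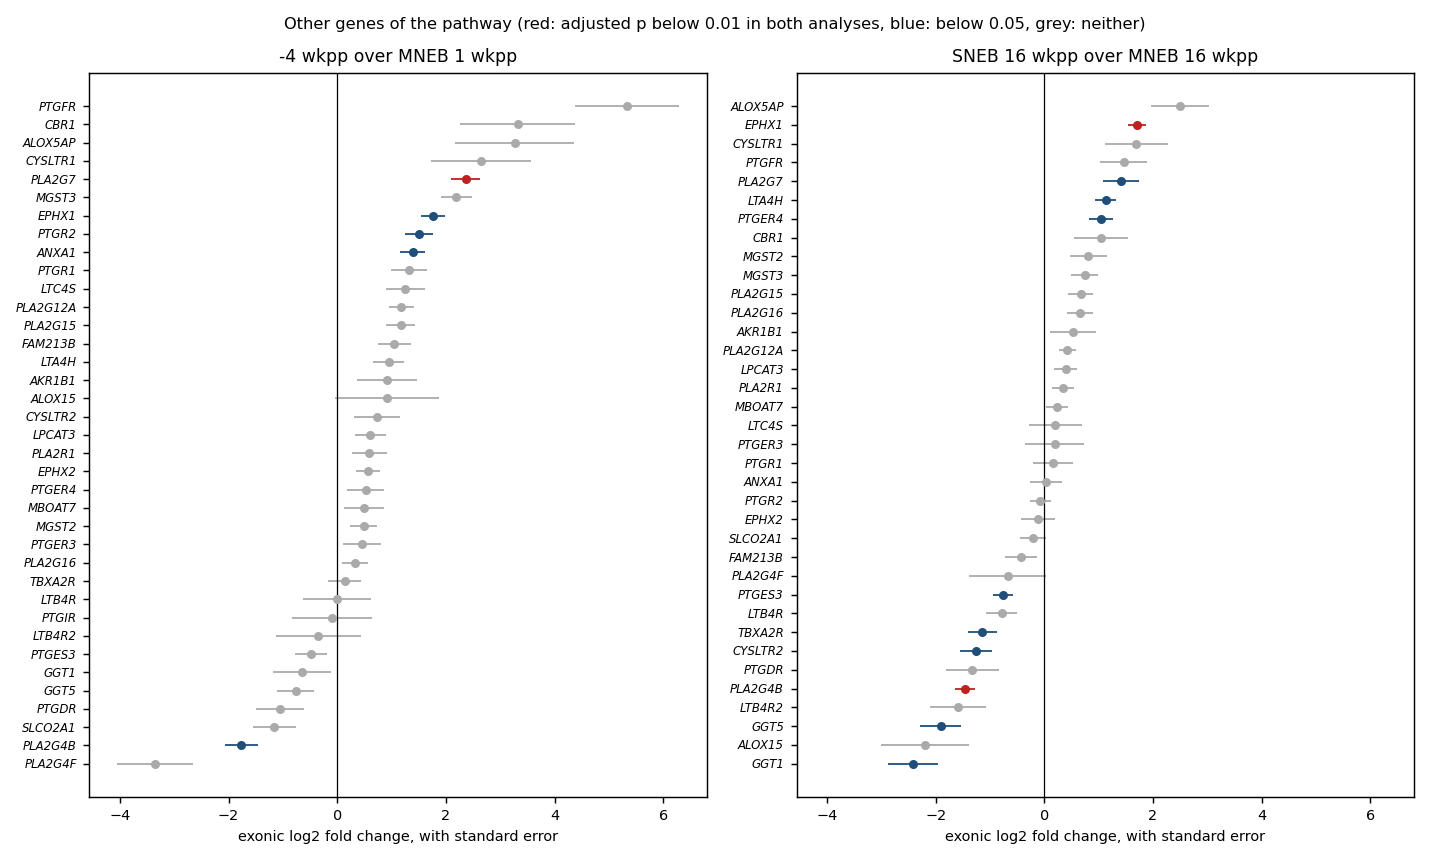
Exonic log2 fold change with its standard error for the other genes of the pathway, 37 for -4 over MNEB 1 wkpp and 36 for SNEB over MNEB at 16 wkpp. Red points mark the calls (*PLA2G7* on the left, *EPHX1* and *PLA2G4B* on the right) and blue points the genes past the wider threshold.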

How the data were processed

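Per the study's methods, the authors made stranded libraries from ribosome-depleted total RNA, and, per the labels, bcl2fastq 2.15.0, cutadapt 1.3, TopHat2 and the bosTau8 genome were used. Reads were counted with HTSeq on exons and on entire genes. Whether strand was used in counting is not given in the sources used here. The 6 deposited tables hold, for each comparison, the mean of 6 libraries after division by DESeq2 size factors, made by the authors, and their own fold changes, standard errors, test statistics and p-values, which were not used. The tables hold 0 columns of other samples. The count model of the study was not run.

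The means carry 15 digits, and a library enters 2 or 3 tables. The whole reads of the 15 libraries were therefore solved as integers from the 6 means of each gene, accepted at a residual below 1.5 rounding units, without negative reads and with room above 10 prior spreads between solutions. This gave 13890 of 13896 genes for exons and 13887 for entire genes, with all 10 members, and 87 of 87 spike-ins came out identical in both. The 5 spike-ins that were not solved are missing from the spike-in shares. The group of a library follows from the tables that share it, but libraries could not be tied to sample names.

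Limma 3.58.1 (R 4.3.3) was run with voom weights on 3 against 3 libraries, with median-of-ratios size factors, on genes with a mean normalized count of at least 10, and p was adjusted by Benjamini-Hochberg over all genes tested. The steps were tested on simulated data. Depth was 2014997 to 14467588 exonic gene reads per library. The members and lists were chosen with earlier results of these data known. Named beside the members were pathway genes called in at least 1 comparison (at most 15); those with the most alike pattern (3 per called member) would have been named too, but no member was called, and the ones given are for members past 0.05. Of the marker lists, platelet and erythrocyte, skeletal muscle, keratinocyte, lymphatic and blood endothelium sums were computed and are in the closing section. Sequences and coordinates were not used here, since the gene table at hand is of a different build. Computations used Python 3.11.15, numpy 2.4.6, pandas 2.3.3, scipy 1.17.1, numba 0.67.0 and matplotlib 3.10.9.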

Additional observations from a re-analysis of the deposited data

Results flagged for a closer look

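The spike-in reads, which enter no comparison, were higher in both MNEB groups than in any library at -4 wkpp, with a median of 195 reads per 1000 exonic gene reads at 1 wkpp and 92.0 at 16 wkpp, against at most 20.4 at -4 wkpp. The part of the RNA input in the values of the 10 genes was not tested.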

How the results depend on the processing

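No paired analysis was possible because the solved libraries carry no replicate number, although the study biopsied each animal at every time. Calls of -4 against MNEB 1 wkpp numbered 190, and 1719 in exons alone, 1057 at 0.05, 1077 with all 15 libraries in 1 fit, 66 without the filter on low counts and 1578 with library quality weights, and ranged from 1 (without -4 wkpp library b or c) to 226 when 1 library was left out. For -4 against SNEB 1 wkpp, 4 calls became 52 in exons alone, 67 at 0.05, 23 with all 15 libraries, 0 with total counts (limma, as are all counts here), 9 with a limma trend and 296 with quality weights, and ranged from 0 to 86 (without SNEB 1 wkpp library b). For SNEB against MNEB at 1 wkpp, 0 calls became 210 in exons alone, 53 at 0.05, 319 with all 15 libraries and 801 with quality weights, and ranged from 0 to 447 (without MNEB 1 wkpp library a). At 16 wkpp, 369 calls became 1051 in exons alone and 1345 at 0.05, and ranged from 34 (without SNEB 16 wkpp library b) to 111. The cause was not tested.

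Members called went from 0 to 2 for -4 against MNEB 1 wkpp in exons alone (*ALOX5*, *PLA2G4A*), at 0.05 (*ALOX5*, *PTGIS*) and with quality weights (*ALOX5*, *HPGD*), to 1 for SNEB against MNEB at 1 wkpp with quality weights (*HPGD*), and at 16 wkpp to 2 in exons alone (*PTGS1*, *PTGDS*) and 5 at 0.05. No member was called when any 1 library was left out. Over 11 other fits or left-out libraries per comparison, the wider threshold was passed again by *ALOX5* and *PTGIS* in 6 each for -4 against MNEB 1 wkpp, and at 16 wkpp by *HPGD* in 7, *PTGS1* in 6, *PTGDS* in 5, *PTGS2* in 3 and *ALOX5* in 2. Members not past it before passed it in some of these: *HPGD* in 4 for SNEB against MNEB at 1 wkpp, *HPGD* in 3 and *PTGS1* and *PLA2G4A* in 1 each for -4 against MNEB 1 wkpp, and *PTGES* in 1 each for SNEB against MNEB at 16 wkpp and SNEB 1 against 16 wkpp. Of 990 member fold changes under alternatives, 75 had the other sign and none of these was called. The 990 include the exon analysis alone and the threshold of 0.05, which keep the exonic fold change and could not turn its sign. *TBXAS1* had as few as 6 exonic reads in a library and *PTGES2* as few as 10. Small changes of these may have been missed, and the part of depth or of the spread between cows was not tested.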

Other observations

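The marker lists not given above add values for the same libraries, as summed normalized exonic counts. Lymphatic endothelium (5 of 6 genes measured) summed to 397 to 941 in MNEB libraries and 2489.9 to 4732 in all others. Of this list, *LYVE1*, *MMRN1* and *CCL21* were lower in each MNEB library. *PROX1* (59.1 to 353 against 136 to 378) and *PDPN* (88.0 to 339 against 90.6 to 716) overlapped. Blood endothelium (6 of 6) was 29897 to 64328 in MNEB cows at 1 wkpp, 30426 to 37608 in SNEB cows at that week and 19721 to 34886 in the other groups. Smooth muscle (5 of 5) was 15699 to 59923 in MNEB libraries, and in the others 4619 to 15997 apart from 42659 in library a at -4 wkpp. The platelet and erythrocyte list (4 of 5) was 337 to 1077 in MNEB and 153 to 495 in all other libraries. Of the skeletal muscle list (4 of 4), *TNNT3* alone carried most of the sums, with 1169.8 to 3940.4 in MNEB and 54.1 to 338 in other libraries, and *CKM* was at 4.89 or less in each library. Keratinocyte genes (4 of 4) summed to 268 or less after calving and 121 to 286 at -4 wkpp.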
